A study of Caenorhabditis elegans with 2 samples.

Results

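The genes described are the core cyclin and cyclin-dependent kinase (CDK) genes of Caenorhabditis elegans: the kinases cdk-1, cdk-2 and cdk-4, the D-type and E-type cyclins cyd-1 and cye-1, the A-type cyclin cya-1, and the B-type cyclins cyb-1, cyb-2.1, cyb-2.2 and cyb-3. They were named as a list of 10 genes, of 19973 protein-coding genes, and the rule that names them uses no measured value, although the list was drawn up with earlier results of these data known. The series measured where on chromatin the transcription factor APTF-2, a member of the AP-2 family, was bound, by chromatin immunoprecipitation and sequencing (ChIP-seq). All samples fall into 1 group of 2 biological replicates, each with 1 technical replicate. They were whole young adults of strain RW12304, collected at 61.5 h after synchronisation as starved first-stage larvae. Every animal carried, at its own aptf-2 locus, a CRISPR insertion of a tag made of TY1, EGFP and 3xFLAG, and an antibody to GFP pulled down the tagged protein. Whole animals mix the germline with all body tissues, so a peak does not say in which cells the factor was bound. No library from animals without the tag was analysed here. The replicates are labelled as separate biological samples, and with 1 group no comparison between conditions can be made.

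Cyclins bind CDKs and switch them on, and the order in which cyclins appear sets the order of the cell cycle. CDK-4 with cyclin D drives cells through G1, CDK-2 with cyclin E starts DNA replication, and CDK-1 with the A-type and B-type cyclins brings cells into and through mitosis and meiosis. In an adult hermaphrodite the body cells have stopped dividing, while germ cells in the gonad continue to divide, and these genes are then used mainly there and in the embryos the animal carries.

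None of the 10 genes had an APTF-2 summit in its promoter window in the authors' conservative list, which keeps peaks that ranked reproducibly across replicates. The promoter window ran from 1000 bp upstream to 200 bp downstream of every protein-coding start of a gene, and a summit is the base the authors gave as the top of a peak. The list held 892 peaks, and 3.15% of all protein-coding genes had one of its summits in the same window. The count was also 0 of 10 in the other list thresholded on both replicates (3.07% of all genes), in the list of replicate 1 (1.46%) and in that of replicate 2 (1.7%). At such shares a list of 10 genes will often hold no listed gene, so the count of 0 is near the background. No listed summit lay within the bodies of these genes either. From their starts to the nearest summit of the conservative list, the distance ran from 4998 bp for cya-1 to 86472 bp for cyb-1. Its median was 48808.5 bp for the 10 genes and 46319 bp for all genes.

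Below the limit of the lists, 9 of the 10 genes had a peak in the ranked list made from both replicates, which holds 94866 peaks whether or not they reproduced. In that list 75.1% of all genes had a summit in the window. Each peak there has a signal, which the authors deposited without naming its scale, and a score for the irreproducible discovery rate (IDR). The score rises to 1000, and 830 stands for a global IDR of 0.01, the limit of the thresholded lists, while 540 stands for 0.05. The median of the highest signal in the window was 54.01 over the 10 genes and 29.2 over all genes, or 35.3 over the 15000 genes that had any peak. Of the 10 genes, 9 lay above the median of all genes, 8 above the upper quartile of 42.1, and 5 above the 90th percentile of 56.5. Those 5 were cye-1, cyb-2.1, cyb-3, cdk-4 and cyb-2.2. The median of the highest IDR score was 235 for the 10 genes and 70 for all genes. These are descriptions of a short named list and carry no test. In the 151 bp around the highest summit the median share of G and C was 44.4% in these genes and 39.1% in all genes with a peak, and the part of base composition in the signals was not tested.

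**Figure D1:**
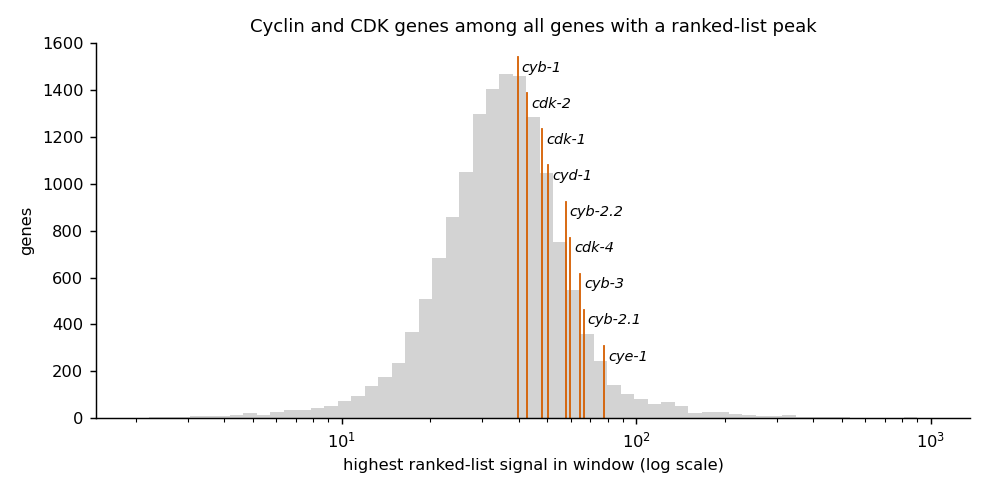
Number of protein-coding genes (vertical axis) by the highest ranked-list signal in their promoter window (horizontal log axis, in the authors' units), over the 15000 genes with a peak. Vertical lines mark the 9 cyclin and CDK genes that had a peak, between 39.7 for cyb-1 and 78.0 for cye-1, all to the right of the median of 35.3; their heights only separate the names.

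The IDR scores of all 10 genes stayed under 830. They reached 540 at cyb-2.1 (608) and cyb-2.2 (542), so 2 of 10 genes passed the looser limit, against 5.3% of all genes. In the other ranked list from both replicates, which gives the same signals at these peaks but other IDR scores, 2 of 10 also passed it, against 5.1% of all genes, and there the genes were cyb-2.1 (617) and cye-1 (597). Between the 2 lists the score of cyb-2.2 was 542 in the main one and 283 in the other, and that of cdk-4 was 117 and 333. The order of these genes by IDR score therefore depended on the list, while cyb-2.1 was highest in both.

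**Figure D2:**
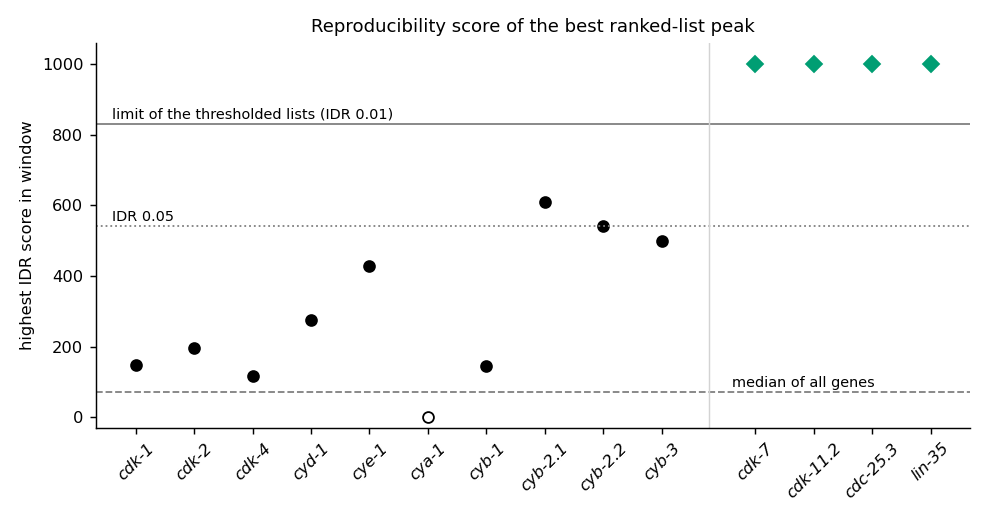
Highest IDR score in the promoter window (vertical axis, no unit) for the 10 cyclin and CDK genes (black circles; open circle, no ranked-list peak) and, right of the divider, for the 4 other cell cycle genes that had a listed summit (green diamonds). The solid line is the limit of the thresholded lists (830), the dotted line the looser limit (540) and the dashed line the median of all genes (70); all 10 genes lie under the solid line and the 4 others at 1000.

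Among the kinases, cdk-4 had the highest signal in the list from both replicates and the least even one between replicates. The gene, WBGene00000406, whose product is the partner of cyclin D, lies at chrX:13515856-13518911 on the minus strand of assembly ce11. Its highest peak, chrX:13518914-13519209, had a signal of 59.7 and an IDR score of 117, which is a global IDR of 0.523. The summit lay 151 bp upstream of the start, between genes, and also fell in the window of the neighbour F18H3.1. In replicate 2 the highest signal in the window was 38.5 with an IDR score of 317, whereas the ranked list of replicate 1 had no summit in the window. The 151 bp at the summit are shown because the peak appeared in 1 replicate only, and capitals mark the 11 bases centred on the summit. The sequence is from the RefSeq genome of the WBcel235 assembly (ce11), chrX:13518987-13519137, read on the minus strand.
cdk-4 summit: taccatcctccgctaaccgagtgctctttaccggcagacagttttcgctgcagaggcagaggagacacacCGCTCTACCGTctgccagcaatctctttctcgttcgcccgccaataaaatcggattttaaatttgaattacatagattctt

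The gene cdk-1 encodes the kinase that starts mitosis, and it is WBGene00000405 at chrIII:9747472-9748852 on the plus strand. Its highest peak, chrIII:9747071-9747366, had a signal of 48.0 and an IDR score of 147, and the summit was 253 bp upstream of the start. That summit lay between genes, 26 bp upstream of the start of iff-1, a translation initiation factor eIF5A gene, and so was nearer to iff-1 than to cdk-1. The highest signal was 28.7 in replicate 1 and 17.5 in replicate 2. Each was above the median of all genes in its own list, 14.4 for replicate 1 and 13.1 for replicate 2. Those medians include the genes without a peak. Over genes with a peak the medians were 22.5 in replicate 1 and 22.1 in replicate 2, and the replicate 2 signal lay below the latter. The replicate 2 peak had an IDR score of 13, the lowest of that list. A second ranked peak 872 bp upstream had a signal of only 2.44 and lay in a coding exon of iff-1.

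The third kinase, cdk-2, acts with cyclin E and is WBGene00019362 at chrI:3410013-3416368 on the plus strand. It has 2 annotated starts, and its highest peak, chrI:3412330-3412625, lay in an intron of the gene, 534 bp before the internal start. That peak had a signal of 42.7 and an IDR score of 196. The highest signals in the window were 26.7 in replicate 1, at a site 910 bp upstream of a start, and 22.8 in replicate 2, at the intron site. The replicates thus did not place their highest peak at one site. Replicate 1 also had a peak at the intron site, of signal 22.4, with its summit 556 bp before the internal start. In replicate 2 that summit was 537 bp before it, and the peak had an IDR score of 13, the lowest of that list. The 201 bp around the intron summit resembled 39 other places, at 90% identity or more over at least 100 bp, which with the site itself lay on 6 chromosomes, and 11 of those places held a ranked-list summit. At 1 of them, chrIV:13450789-13451084, the peak was in the conservative list with a signal of 173.7. The part of reads that fit several copies in the cdk-2 signal was not tested.

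The highest signal of all 10 genes was at cye-1, which encodes cyclin E (WBGene00000871, chrI:6780799-6784397, plus strand). Its peak, chrI:6780118-6780413, had a signal of 78.0 and an IDR score of 428, a global IDR of 0.0929, and 96.5% of genes lay below it in signal. In the conservative list, 106 of 892 peaks had a lower signal than this one, but its IDR score was under the limit of 830. Replicate 1 gave 48.5 and replicate 2 gave 24.8, at summits 506 bp and 563 bp upstream of the start. The summit of the joint peak was 533 bp upstream of cye-1, between genes, but only 115 bp upstream of the neighbouring gene pqn-21, whose window it shares.

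**Figure D3:**
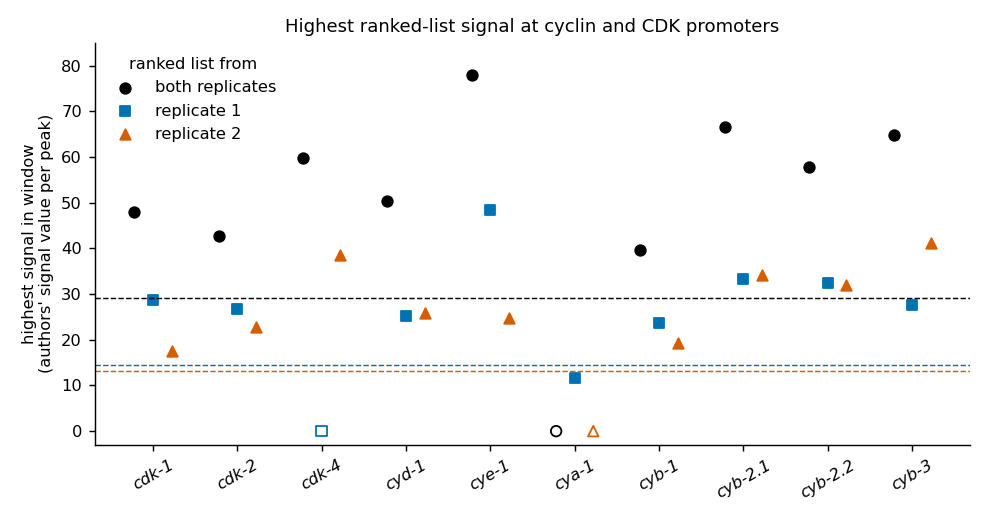
Highest signal in the promoter window (vertical axis, authors' signal value) for each cyclin and CDK gene in the ranked list from both replicates (black circles), from replicate 1 (blue squares) and from replicate 2 (orange triangles). Open symbols at 0 mean no peak and dashed lines are the medians of all genes in the list of the same colour (29.2, 14.4 and 13.1); cdk-4 lacks a peak in replicate 1 and cya-1 in replicate 2.

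The D-type cyclin gene cyd-1 (WBGene00000870, chrII:12980591-12993117, plus strand) had similar signals in both replicates. The highest signal was 25.23 in replicate 1 and 25.8 in replicate 2, and 50.3 in the list from both, with an IDR score of 274. This peak, chrII:12987740-12988035, lay in an intron of cyd-1, 335 bp before the internal one of its 2 starts. The replicates placed the summit apart, 337 bp before that start in replicate 1 and 213 bp before it in replicate 2. Their IDR scores were 53 in replicate 1 and 33 in replicate 2. Upstream of the first start the ranked list held only a weaker peak, of signal 16.5, at a distance of 526 bp. The peak of the D-type cyclin was thus at the internal start and not at the first one. Its 151 bp, chrII:12987813-12987963 on the plus strand of the same RefSeq assembly, are given with the 11 bases centred on the summit in capitals.
cyd-1 summit: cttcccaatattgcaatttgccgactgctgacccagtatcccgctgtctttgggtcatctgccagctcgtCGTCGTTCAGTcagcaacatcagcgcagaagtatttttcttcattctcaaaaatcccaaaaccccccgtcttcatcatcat

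The A-type cyclin gene cya-1 (WBGene00000863, chrIII:9106699-9109272, minus strand) was the exception to the pattern of weak peaks. No peak of the ranked list from both replicates had a summit in its window, and none was there in replicate 2. Replicate 1 alone gave a peak, of signal 11.7, at 605 bp upstream with an IDR score of 11. That signal was under the median of all genes in the same list, 14.4. No read counts were used here, so the absence of a peak does not set an upper limit on binding. Its nearest listed summit, 4998 bp away, was also the closest among the 10 genes, and that summit lay in no promoter window.

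The B-type cyclin gene cyb-1 (WBGene00000865, chrIV:10735216-10737177, plus strand) had the lowest signal of the 9 genes with a peak. Its highest peak, chrIV:10735358-10735653, had a signal of 39.7 and an IDR score of 145. The summit fell 64 bp downstream of the nearest start, the internal one of 2, in a coding exon of cyb-1 itself. It was the only highest peak among the 9 to lie downstream of the nearest start. Those of cdk-2 and cyd-1 also lay within the gene, but upstream of an internal start. The cyb-1 summit also lay in the window of orc-5, which encodes a subunit of the origin recognition complex. Replicate 1 gave 23.6, at a summit 479 bp upstream of the first start. Replicate 2 gave 19.4, at one 49 bp downstream of the internal start, so here too the replicates differed in where the highest peak was. Replicate 1 also had a peak of signal 20.4 close to the replicate 2 site, 47 bp downstream of the internal start.

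The B-type cyclins cyb-3, cyb-2.1 and cyb-2.2 had the highest IDR scores of the 10 genes in the main ranked list. The gene cyb-3 (WBGene00000868, chrV:15395696-15397353, plus strand) encodes the B3-type cyclin, which acts in chromosome segregation. Its peak, chrV:15395393-15395688, had a signal of 64.7 and an IDR score of 500, a global IDR of 0.0623, with the summit 155 bp upstream of the start. Replicate 2 was the higher one for this gene, at 41.3, and replicate 1 had 27.5. The 7 of the 10 genes without a similar copy of a summit window in the genome include cya-1, which had no summit to search. Among these 7, cyb-3 had the highest IDR score in the main ranked list. In the other ranked list cye-1 (597) stood above cyb-3 (515). The summit lay between genes and also in the window of the neighbour T06E6.1. Its 151 bp, chrV:15395466-15395616 on the plus strand, are shown for that reason, with the 11 bases centred on the summit in capitals.
cyb-3 summit: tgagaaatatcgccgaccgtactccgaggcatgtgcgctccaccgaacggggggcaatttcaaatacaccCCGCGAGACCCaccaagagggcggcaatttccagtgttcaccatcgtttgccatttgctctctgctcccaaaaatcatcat

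The most reproducible peak of the 10 genes was upstream of cyb-2.1 (WBGene00000866, chrIV:10985985-10987426, plus strand). This peak, chrIV:10985434-10985729, had a signal of 66.5 and an IDR score of 608, a global IDR of 0.0342. Its replicates were close, at 33.2 in replicate 1 and 34.1 in replicate 2, with summits 405 bp and 404 bp upstream of the start. No other gene shares it. The sequence at the summit, chrIV:10985507-10985657 on the plus strand, is repetitive. Capitals mark a stretch of 26 bases that occurs in it at 2 places, one after the other.
cyb-2.1 summit: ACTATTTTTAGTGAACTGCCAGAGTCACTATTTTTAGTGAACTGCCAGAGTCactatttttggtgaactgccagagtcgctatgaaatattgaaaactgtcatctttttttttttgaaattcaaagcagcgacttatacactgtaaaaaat
Regions similar to the 201 bp around this summit occurred at 20 other places in the genome, and the cyb-2.1 region and these others together lay on 4 chromosomes. Of the 20, 2 held a ranked-list summit, both on the X chromosome. The peak at chrX:15810950-15811171 was the strongest of the whole ranked list, with a signal of 2409 (1323 in replicate 1 and 1246 in replicate 2). The peak at chrX:15808044-15808339 had a signal of 354 and rank 41. Both had an IDR score of 1000, yet neither was in the conservative list or in either replicate's thresholded list. In all, 58 of the 950 ranked-list peaks with a score of 830 or more were absent from the conservative list, and the reason was not tested. The part of reads shared between copies in the cyb-2.1 signal was not tested.

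The paralogue cyb-2.2 (WBGene00000867, chrI:4114861-4116370, plus strand) had a peak at another place relative to its start. This peak, chrI:4114538-4114833, had a signal of 57.7 and an IDR score of 542, with the summit 175 bp upstream. The replicates gave 32.4 and 32.1, in replicate 1 and replicate 2, each about as high as at cyb-2.1. The promoter windows of cyb-2.2 and cyb-2.1 share a stretch of 455 bp at 95.6% identity, which reaches from about 394 bp upstream to 58 bp downstream of the cyb-2.2 start. They were the only pair among the 10 genes with a match of 100 bp or more. The counterpart of the cyb-2.2 summit in the cyb-2.1 window held no ranked-list summit. The peak of cyb-2.1, 403 bp upstream, had its summit just beyond the shared stretch, which begins 393 bp upstream of that start. Both genes that passed an IDR score of 540 in the main list had summit windows with similar copies elsewhere. The 7 genes without such a copy include cya-1, which had no summit window to search and so could not pass it. Of these 7 genes, 0 passed it in the main list. In the other ranked list 1 of the 7 did, cye-1 at 597, while cyb-2.2 was at 283, so the split by copies did not hold in both lists.

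Each replicate's own ranked list gave 9 of 10 genes a peak, against 57.1% of all genes in replicate 1 and 55.1% in replicate 2. The missing gene was cdk-4 in replicate 1 and cya-1 in replicate 2, so 8 genes had a peak in both. The share of all genes with a peak in both was not computed, so the 8 is not read as a result. The median highest signal was 27.1 for the 10 genes and 14.4 for all genes in replicate 1. In replicate 2 it was 25.299 for the 10 genes and 13.1 for all genes. Above the median of all genes lay 8 of 10 in replicate 1 and 9 of 10 in replicate 2. These medians of all genes include genes without a peak. Over genes with a peak the median was 22.5 in replicate 1 and 22.1 in replicate 2. Of the 10 genes' peaks, those of cya-1 (11.7) in replicate 1 and of cdk-1 (17.5) and cyb-1 (19.4) in replicate 2 lay under it. The order of the genes differed between the replicates. In replicate 1 the highest were cye-1 at 48.5, cyb-2.1 at 33.2 and cyb-2.2 at 32.4. In replicate 2 the highest were cyb-3 at 41.3, cdk-4 at 38.5 and cyb-2.1 at 34.1. Only cyb-2.1 was among the highest 3 in both. Among the 8, cdk-1 and cye-1 changed most in their place among all genes. At cdk-1 the percentile was 85.3 in replicate 1 and 60.2 in replicate 2, and at cye-1 it was 97.5 in replicate 1 and 79.1 in replicate 2. The signals of the list from both replicates are not compared with those of a single replicate, since their scale is not stated. With 2 replicates no test over samples was made, and genes that are neighbours in the order of signal cannot be told apart.

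The 9 highest peaks lay at varied distances from the starts. Their median summit position was 253 bp upstream in these genes and 347.5 bp upstream in all genes with a ranked peak. Upstream of the nearest start whose window held the summit lay 8 of 9, against 80.8% of all genes with a ranked peak. Between genes lay 6 of 9, and the other 3 (cdk-2, cyd-1 and cyb-1) were within the gene itself. The shares of all genes for these places were not computed. Of the 9, 5 also fell in the window of another gene (cdk-1, cdk-4, cye-1, cyb-1 and cyb-3), which was so for 22.7% of all genes with a peak. For cdk-1 and cye-1 the neighbour's start was the nearer one, and the share of all genes for this was not computed either. For all 5, a peak of the gene and a peak of its neighbour cannot be told apart. In all, 19 ranked-list summits lay in the windows of the 10 genes.

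**Figure D4:**
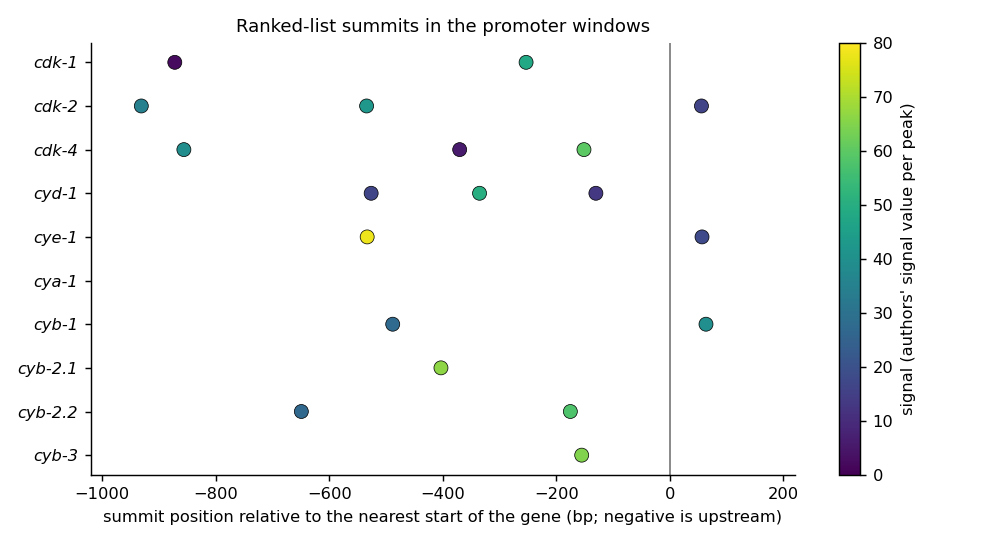
Position of every ranked-list summit in the promoter windows of the 10 genes (horizontal axis, bp from the nearest start of the gene, negative upstream; grey line, start), coloured by signal (authors' value). The 19 summits spread over the windows, cya-1 has none, and only cdk-2, cye-1 and cyb-1 have one downstream of the start.

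Sequence motifs were looked up in the 300 bp of each promoter, from 250 bp before to 50 bp after the annotated start of the gene, on both strands. These 300 bp do not hold the highest summits of cdk-1, cdk-2, cye-1, cyb-1, cyb-2.1 and cyd-1. The AP-2 family is known in mammals to bind the palindrome GCCNNNGGC, and it occurred in 0 of the 10 promoters and in 1.27% of all promoters. In the whole promoter windows it occurred in 0 of the 10 genes and in 6.52% of all genes. E2F factors, which switch on genes for DNA replication, bind forms of one site, of which TTTCCCGC, TTTCGCGC, TTTGCCGC and TTTGGCGC were searched. An E2F form occurred in 2 of 10 promoters, those of cdk-2 and cyd-1, and in 4.69% of all promoters. In both it was TTTCCCGC on the strand opposite to the gene, with its first base 86 bp before the start of cdk-2 and 68 bp before that of cyd-1. The form TTTGAA, known in mammals as a core of the cell cycle genes homology region, occurred in 8 of 10 promoters, but 62.5% of all promoters hold it. No match in these 10 promoters overlapped another, and a match is only a run of letters. The median share of G and C in the 300 bp was 39% in these promoters and 34.3% in all.

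The cyd-1 match lies upstream of the first start and far from the intron peak shown above. Its surroundings, chrII:12980493-12980560 on the plus strand, are printed with the 8 bases of the E2F form in capitals, here read as its reverse complement.
cyd-1 E2F form: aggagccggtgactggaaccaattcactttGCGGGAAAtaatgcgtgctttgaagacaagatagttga

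Other genes of the same machinery did have listed summits. Of 16 other cyclin and CDK genes, 2 had one in the conservative list, and of 24 genes that regulate CDKs, 2 had one, against 3.15% of all genes. With lists this short, these counts are not read as a difference from the core genes, and no test was made. Both lists were drawn up with earlier results of these data known. The median highest ranked-list signal was 54.01 for the 10 core genes, 37.2 for the other cyclin and CDK genes and 47.6 for the regulators. The highest was cdc-25.3, a CDC25-family phosphatase gene of the kind that activates CDKs, at chrIII:8918071-8918289 with a signal of 503.9. Its replicates gave 245.4 in replicate 1 and 260.3 in replicate 2, both thresholded. The next was cdk-11.2, a CDK11-type kinase gene, at chrX:10419866-10419991 with a signal of 287.9 (126.4 in replicate 1 and 155.5 in replicate 2, also both thresholded). Both peaks were several times stronger than any at the core genes. For a direct look beside the cdk-4 and cyb-3 sequences, the 151 bp at both summits are printed from the minus strand, with the 11 bases centred on the summit in capitals: chrIII:8918115-8918265 for cdc-25.3 and chrX:10419851-10420001 for cdk-11.2.
cdc-25.3 summit: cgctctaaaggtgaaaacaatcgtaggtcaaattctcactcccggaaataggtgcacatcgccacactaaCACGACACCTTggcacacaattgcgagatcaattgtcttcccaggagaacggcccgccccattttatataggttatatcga
cdk-11.2 summit: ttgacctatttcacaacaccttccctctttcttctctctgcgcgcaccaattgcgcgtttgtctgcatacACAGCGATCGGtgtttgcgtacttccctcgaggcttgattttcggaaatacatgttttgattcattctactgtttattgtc

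The remaining listed genes were lin-35, the worm's retinoblastoma-type repressor gene, and cdk-7, the gene of the CDK-activating kinase. The lin-35 peak had a signal of 136.4, with 71.9 in replicate 1 and 60.3 in replicate 2, both thresholded, and it shares the window of vps-51. The cdk-7 peak had 88.2, with 45.5 in replicate 1 and 43.9 in replicate 2, neither of which was in that replicate's thresholded list. Its summit was 8 bp upstream of the start. Its signal was little above the 78.0 of cye-1, whose replicates, at 48.5 and 24.8, lay further apart. The mitotic kinase gene plk-1, named here after its values were seen, had a signal of 74.4 and an IDR score of 796 in the main ranked list, but of 199 in the other one. The paralogue of cdk-11.2, cdk-11.1, also named after its values were seen, had a signal of 32.1 and an IDR score of 206 in the main list and 61 in the other.

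The listed summits nearest to the core genes belonged to other genes or to none. That of cdk-1, 18117 bp away, lay in the window of cbp-1, a histone acetyltransferase gene, and that of cyb-3, 6498 bp away, in the window of srh-170. Those of cdk-2 (edc-4), cdk-4 (unc-84), cye-1 (H27M09.5 and syp-4), cyb-1 (miz-1) and cyb-2.2 (egg-5) were 57420 to 86472 bp away. Those of cya-1, cyb-2.1 and cyd-1 lay in no promoter window. Distance to a listed summit was thus no smaller for the core genes, with a median of 48808.5 bp, than for all genes, with 46319 bp.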

How the data were processed

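APTF-2 ChIP-seq peak lists were analysed from 2 biological replicates of tagged young adults. Chromatin had been sonicated to 200 to 800 bp, per the labels. Per the text deposited with the samples, the authors made ranked and thresholded IDR lists on assembly ce11 from each replicate and from both. The lists made from both replicates come in 2 pairs. Thresholded lists draw on 1 further file that the text does not describe. The aligner and peak caller, not given in the sources used here, could change which weak peaks are ranked. The deposited signal of a peak has no stated scale. The deposited IDR score is a whole number up to 1000, and 2 deposited columns are −log10 values, of the q value and of the global IDR. No counts were used, so depth is unknown, and no interval is given for single values. Columns of paired inputs without replicate names were not used.

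Summits (column 2 plus column 10) were assigned to every protein-coding start of Ensembl release 115 (29314 starts of 19973 genes) with Python 3.11.15, NumPy 2.4.6 and pandas 2.3.3. Assignment was tested on simulated summits. The highest signal and IDR score per gene were compared with all genes. A percentile is the share of all genes with a lower highest signal, with ties at their mid-rank. Similar copies of 201 bp at the highest summit were found with BLAST 2.17.0 (at least 90% identity over at least 100 bp, overlapping matches merged). Plots used matplotlib 3.10.9. Sequences are from the RefSeq genome of WBcel235. The members and lists were chosen with earlier results of these data known. Of the lists of other cyclins and CDKs and of CDK regulators, 16 of 17 and 24 of 24 symbols matched, and cdtl-7 matched none. The genes named were all 10 members, those of the other lists with a summit in the conservative list, and neighbours that share a member's highest peak. Outside this rule, plk-1, cdk-11.1, vps-51 and the genes whose windows hold the listed summits nearest to the members were named after their values were seen. Alternatives are given in the closing section. The other ranked list at an IDR score of 540, single-start genes, single-copy windows in either ranked list and distances in the other list were added after seeing the data.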

Additional observations from a re-analysis of the deposited data

How the results depend on the processing

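No member had a listed summit in 8 of the 12 alternatives. These were the other thresholded list, each replicate alone and the stronger peaks by signal. The rest were a narrower or wider window, any overlap of peak and window, and the nearest start within 2000 bp. The stronger peaks and the narrower window are parts of the main setting, so their counts were fixed by it. The nearest listed summit to a member start was 4998 bp away, so the wider window and the nearest start could not differ either. Peaks of the conservative list were 296 bp wide in the median, which left little room for any overlap. At an IDR score of 540 the count was 2 in the main ranked list and 2 in the other one. Without members that have similar copies it was 0 in the main list and 1 (cye-1) in the other. The median percentile of the members' highest signal was 87.9 and kept its side of the all-gene median throughout. It was 80.3 to 82.5 with each replicate left out. With windows of 500 bp upstream it was 89.99, and with 2000 bp it was 85.3. Among genes with a single start it was 92.6 (5 members), and among the 7 members without similar copies it was 85.2. Those 7 include cya-1, at a percentile of 12.4, which had no summit window to search for copies. The value of 85.2 therefore does not describe searched members alone. The median percentile did not move with the other ranked list. The E2F forms were found in the whole windows of 4 members (cdk-1, cdk-2, cye-1 and cyd-1), against 19.0% of all genes. The AP-2 palindrome was in the whole windows of 0 members, against 6.52% of all genes. The cause of these shifts was not tested. The count of listed genes among the other cyclins, CDKs and regulators was 4, and 3 without either replicate. With peak lists alone and no counts, a weak peak cannot be told from background by depth.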
